A study of Mus musculus with 11 samples.

Results

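The forkhead (Fox) transcription factors of the mouse were followed here through RNA and 2 histone marks of the developing kidney. Members were all protein-coding genes whose symbol is Fox, 1 letter from a to s and a number, which gave 44 of the 21883 protein-coding genes placed on chromosomes 1 to 19, X and Y. Their RNA values were taken from the deposited expression table by RefSeq accession, and 155 transcripts belonged to them. Their marks were read at the outermost start of each gene, 1 kb on either side, and over the gene body.

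For RNA, metanephric mesenchyme and ureteric bud had been dissected by hand from E11.5 embryos of wild-type C57BL/6 mice. Chromatin came from 3 other sources. Cap mesenchyme, the nephron progenitor pool, was the Cited1-RFP+ fraction sorted at E18.5 from the Cited1nuc-TagRFP-T strain, which is of (C57BL/6 x DBA)F1 origin and kept on C57BL/6J, and is called cap cells from here. Ureteric epithelium, the branching tube that forms the collecting ducts, was the Hoxb7-GFP+ fraction sorted at E15.5 from Hoxb7myr-Venus/+ mice, of (C57BL/6J x CBA/J)F2 origin on C57BL/6J, and is called ureteric cells from here. The embryonic stem cells were wild-type E14 cells of strain 129/Ola at passage 15, which are 1 line. Unfixed chromatin was cut with micrococcal nuclease and precipitated with antibodies to H3K4me3, which marks promoters that are active or poised, or H3K27me3, the mark left by Polycomb repressive complex activity. With 1 sample in each group there is no replicate check, and no spread or p-value could be given.

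Forkhead proteins share a winged-helix DNA-binding domain and are named by letter for their relatedness within it. FoxA proteins open compacted chromatin in endoderm, FoxO proteins respond to insulin and growth factor signaling, FoxM1 drives genes of mitosis, and FoxC, FoxD, FoxF and FoxL proteins pattern mesenchyme. In the kidney, Foxd1 marks the progenitors of the stroma, Foxc1 and Foxc2 act in the early mesenchyme that sets where the ureteric bud forms, and Foxi1 directs the acid-secreting intercalated cells of the collecting duct. Many developmental regulators of this kind carry H3K4me3 and H3K27me3 together in stem cells, a state often called bivalent.

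The RNA values are FPKM, fragments scaled by transcript length and library. Ureteric bud values ran higher as a whole: over 9173 protein-coding genes at 1 FPKM or more in both tissues, the median difference in log2(FPKM + 1), mesenchyme minus bud, was -0.46, and changes are read against that. A gene is called 4-fold higher where this difference is at least 2 in size and the higher tissue has at least 2 FPKM. The H3K4me3 lists held 32992, 23958 and 67022 peaks in cap cells, ureteric cells and stem cells, and the H3K27me3 lists 108394, 144362 and 12879. Tissue labels were checked on marker lists: 8 of 10 nephron progenitor markers were at least 4-fold higher in mesenchyme RNA, and all 10 ureteric markers were at least 4-fold higher in bud RNA. Cited1, whose reporter served to sort the cap cells, leaned the other way in RNA, at 2.78 FPKM in mesenchyme and 8.34 FPKM in bud. In chromatin, nephron progenitor markers carried H3K4me3 only at 10 of 10 starts in cap cells and 6 of 10 in ureteric cells, but ureteric markers did so at 4 of 10 in each population and so did not set the ureteric cells apart. Among the latter, Wnt9b had H3K27me3 only in ureteric cells, and Hoxb7 had neither mark there and H3K4me3 only in cap cells. Stem cell markers Pou5f1, Nanog and the others carried H3K4me3 only at 7 of 8 starts in stem cells and at 0 and 1 of 8 starts in cap cells and ureteric cells. Renal stroma markers, Foxd1 among them, summed to 242 FPKM in mesenchyme against 3.10 in bud, and endothelial markers to 38.9 against 10.3 FPKM. In cap cells 6 of the 9 stroma markers carried H3K4me3 only, so the list did not set stroma apart from nephron progenitors. How much of the mesenchyme dissection was stroma was not tested. In the sorted chromatin, 6 of 8 endothelial markers carried H3K4me3 only in ureteric cells, and 7 of 8 carried neither mark in cap cells.

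All 44 members had an RNA value, and 18 reached 1 FPKM in at least 1 tissue, or 40.9% against 51.8% of protein-coding genes. Of these, 17 reached that level in mesenchyme and 13 in bud, beside 9833 and 10285 of 21129 protein-coding genes. The members summed to 199 FPKM in mesenchyme and 111 FPKM in bud, or 0.150% and 0.0553% of the protein-coding FPKM. By that rule 5 members were 4-fold higher in mesenchyme: Foxc1, Foxd1, Foxc2, Foxp2 and Foxd2. The background share was 0.947% of protein-coding genes, or 1.83% of those at 1 FPKM or more in a tissue. No member was 4-fold higher in bud (0 of 44), where the background shares were 2.18% and 4.21%. The other 26 members lay under 1 FPKM in both tissues, the highest being Foxl1 at 0.688 FPKM in mesenchyme. Of all 44 members 9 were listed at 0 in both, as were 5300 of 21129 protein-coding genes. In bulk tissue, fewer cells of a type and less RNA per cell cannot be told apart.

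**Figure D1:**
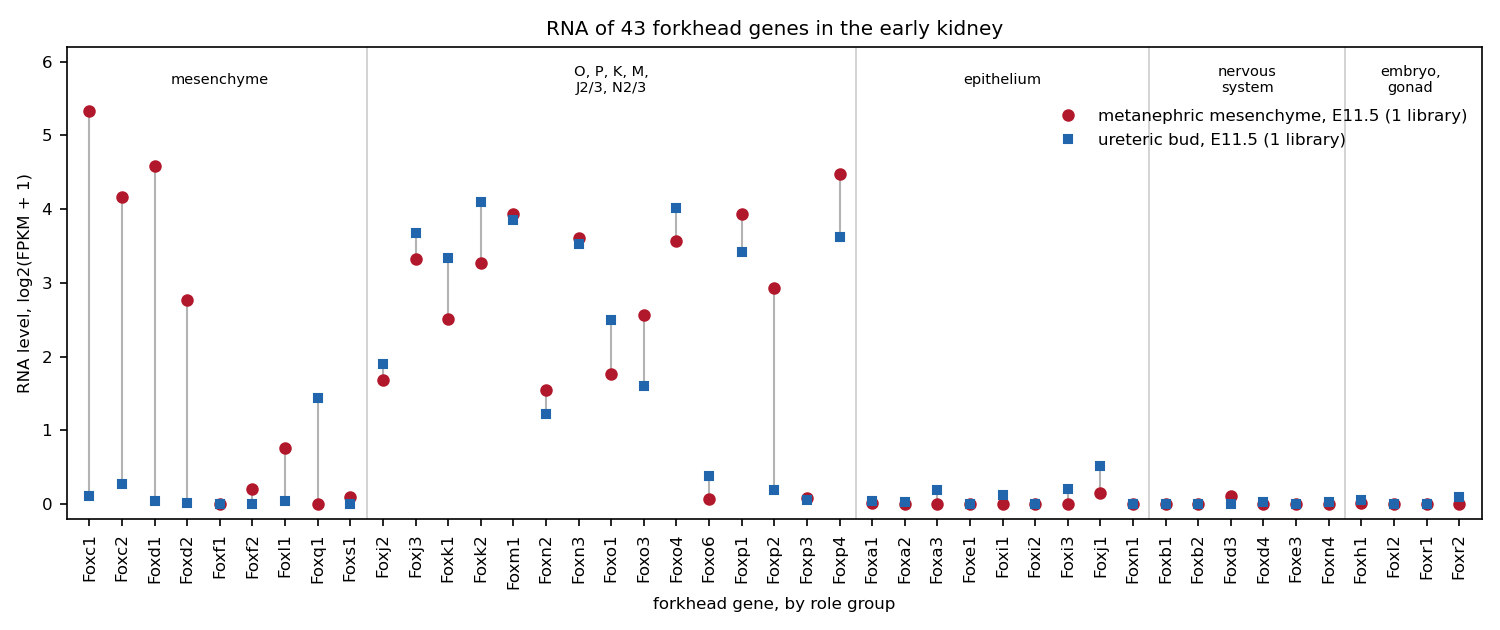
RNA level of 43 of the 44 forkhead genes as log2(FPKM + 1), with 1 library for metanephric mesenchyme (circles) and 1 for ureteric bud (squares), grouped by role; grey lines join the 2 values of a gene. Foxc1, Foxc2, Foxd1, Foxd2 and Foxp2 stand high in mesenchyme and near 0 in bud, the FoxO, FoxP, FoxK and related genes mostly lie close together in both tissues, and the epithelial, neural and embryonic groups lie near 0.

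At the starts, H3K4me3 was present at 37 of 44 members in cap cells, 24 in ureteric cells and 39 in stem cells. The background shares were 63.6%, 59.7% and 67.5% of protein-coding starts. H3K27me3 was present at 19, 24 and 25 members, where the background shares were 7.69%, 11% and 11.9%. So 54.5% of the forkhead starts carried H3K27me3 in ureteric cells. Starts with H3K4me3 only, with both marks, with H3K27me3 only and with neither numbered 19, 18, 1 and 6 members in cap cells, 14, 10, 14 and 6 in ureteric cells, and 16, 23, 2 and 3 in stem cells. The background shares for H3K4me3 only were 57.7%, 53.2% and 56.4%, and for neither 34.6%, 35.8% and 31.8%. Those for both marks were 5.88%, 6.46% and 11.1%, and for H3K27me3 only 1.81%, 4.57% and 0.74%. A peak list pools many cells, so both marks at a start need not lie in the same cell.

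**Figure D2:**
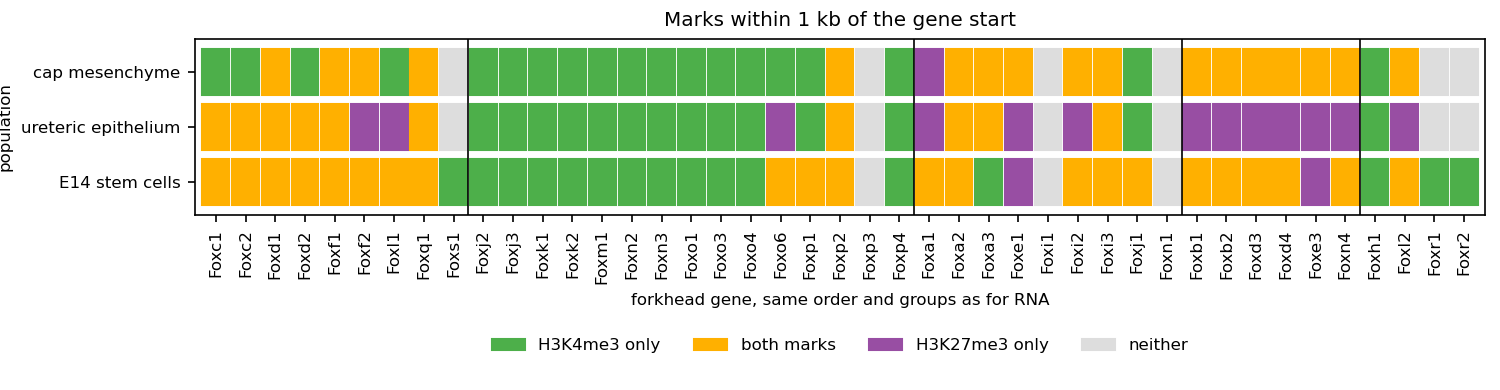
State of the start of 43 of the 44 forkhead genes (columns, grouped by role as for RNA) in cap cells, ureteric cells and E14 stem cells (rows), from deposited peaks within 1 kb of the start. The 6 nervous system genes plotted show both marks in cap cells and H3K27me3 only in ureteric cells, and most FoxO, FoxP, FoxK and related genes show H3K4me3 only in all 3 populations.

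Members with and without RNA differed in the marks at their starts. Each of the 18 members at 1 FPKM or more had H3K4me3 at its start in all 3 populations, against 93.4%, 92.2% and 94.5% of protein-coding genes at that level in cap cells, ureteric cells and stem cells. H3K27me3 was at 3, 6 and 7 of those 18, or 16.7%, 33.3% and 38.9%, against 3.43%, 5.36% and 9.58% of protein-coding genes at that level. Among the 26 members under 1 FPKM, H3K27me3 was at 16, 18 and 18 starts, or 61.5%, 69.2% and 69.2%, while 12.1%, 16.9% and 14.6% of protein-coding genes under 1 FPKM had it. H3K4me3 was at 19 of those 26 starts in cap cells and at 6 in ureteric cells, or 73.1% and 23.1%, where 34.2% and 27.2% of protein-coding genes under 1 FPKM had it, so the ureteric cell share was near the background. The RNA and the chromatin differ in age and in how the cells were obtained, and the part of either in these counts was not tested.

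The promoters themselves differ in CpG content, a property tied to the marks a promoter carries in mammals. RefSeq promoter sequences on GRCm38.p6, the build of the peak files (mm10), were found for 28 of the 44 members. Given here are the 250 bases before the start of 6 of them, chosen to span the mark patterns: Foxk2 with H3K4me3 only in all populations (chr11:121259737-121259986, plus strand), Foxc1 (chr13:31806396-31806645, plus), Foxd2 (chr4:114908899-114909148, minus) and Foxd1 (chr13:98353995-98354244, plus), the mesenchymal genes, Foxl2 with both marks in cap cells and H3K27me3 only in ureteric cells (chr9:98955357-98955606, plus), and Foxi1 with neither mark anywhere (chr11:34208090-34208339, minus). All end at the base before the RefSeq start and read 5′ to 3′ towards the gene, with CpG dinucleotides in capitals.
Foxk2: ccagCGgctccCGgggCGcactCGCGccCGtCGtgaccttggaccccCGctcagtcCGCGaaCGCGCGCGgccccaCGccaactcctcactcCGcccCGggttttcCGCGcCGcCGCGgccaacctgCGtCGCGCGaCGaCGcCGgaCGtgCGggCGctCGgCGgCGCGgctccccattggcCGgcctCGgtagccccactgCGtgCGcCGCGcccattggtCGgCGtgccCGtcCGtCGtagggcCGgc
Foxc1: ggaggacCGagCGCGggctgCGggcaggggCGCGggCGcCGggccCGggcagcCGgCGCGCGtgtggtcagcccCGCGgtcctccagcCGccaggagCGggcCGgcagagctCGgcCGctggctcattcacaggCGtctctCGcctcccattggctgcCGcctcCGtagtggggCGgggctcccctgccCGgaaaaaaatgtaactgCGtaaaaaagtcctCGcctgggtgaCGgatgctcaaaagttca
Foxl2: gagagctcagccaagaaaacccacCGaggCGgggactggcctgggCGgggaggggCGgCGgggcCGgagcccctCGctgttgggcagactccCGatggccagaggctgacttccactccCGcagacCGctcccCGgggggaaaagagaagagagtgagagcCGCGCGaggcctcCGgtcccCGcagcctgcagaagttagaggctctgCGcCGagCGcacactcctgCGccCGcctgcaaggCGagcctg
Foxd2: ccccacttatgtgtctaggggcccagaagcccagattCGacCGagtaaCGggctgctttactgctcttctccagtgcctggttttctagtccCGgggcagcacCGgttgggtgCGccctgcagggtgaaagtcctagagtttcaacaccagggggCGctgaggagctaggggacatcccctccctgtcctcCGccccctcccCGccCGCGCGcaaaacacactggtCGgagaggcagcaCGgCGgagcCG
Foxd1: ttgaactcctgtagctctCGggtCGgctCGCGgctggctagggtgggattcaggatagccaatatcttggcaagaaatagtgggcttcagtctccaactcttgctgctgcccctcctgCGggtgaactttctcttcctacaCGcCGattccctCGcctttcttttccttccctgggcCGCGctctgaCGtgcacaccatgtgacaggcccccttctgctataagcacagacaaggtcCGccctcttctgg
Foxi1: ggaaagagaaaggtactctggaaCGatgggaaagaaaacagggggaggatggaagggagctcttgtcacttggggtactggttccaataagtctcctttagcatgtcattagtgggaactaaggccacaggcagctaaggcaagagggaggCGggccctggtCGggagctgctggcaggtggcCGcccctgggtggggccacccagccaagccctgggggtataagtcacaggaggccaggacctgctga
The Foxk2 stretch holds 48 CpG, Foxc1 29, Foxl2 22, Foxd2 16, Foxd1 12 and Foxi1 4. The lines are printed in order of CpG count, so the capitals thin out from the first to the last by that order. Counts overlap between the mark states. Foxi2, with both marks in cap cells, holds 3 CpG, and Foxr1, with neither mark in the kidney populations, holds 15.

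Over the 24 members whose listed start lies within 1 kb of the outermost one, the median was 30 CpG for the 8 with H3K4me3 only in cap cells, 14.5 for the 12 with both marks and 6.5 for the 4 with neither. Protein-coding promoters in the same states had medians of 16, 15 and 2 CpG. In ureteric cells the forkhead medians were 32.5 CpG for H3K4me3 only, 17 for both marks, 14.5 for H3K27me3 only and 6.5 for neither. Protein-coding promoters in those states in ureteric cells had medians of 16, 15, 3 and 2 CpG. The forkhead binding motif TGTTTAC, searched on both strands, was found in 1 of the 28 stretches (Foxa1), or 3.57%, and in 2.57% of 17491 protein-coding promoters of the same length. The TATA box letters TATAAA, on both strands, were found in 2 of the 28 (Foxa3 and Foxp3), or 7.14%, against 12.4% of protein-coding promoters. A match is a description of the letters and not a site in use.

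**Figure D3:**
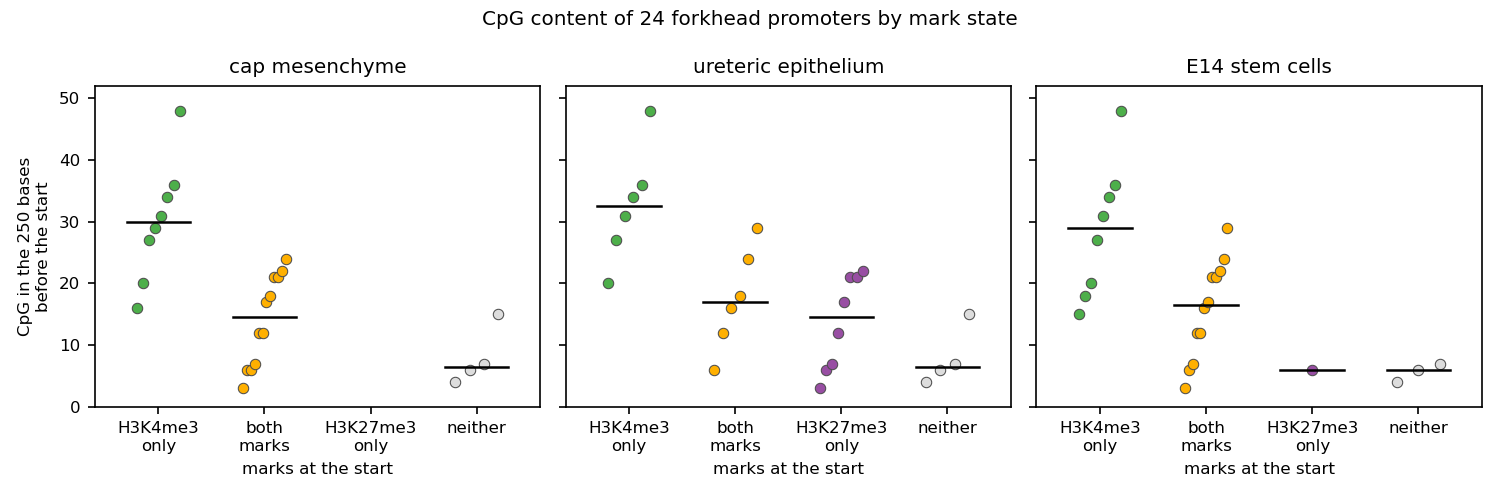
Number of CpG in the 250 bases before the start for 24 forkhead genes (points), by the marks at the start in each of the 3 populations; black lines are medians. In cap cells the H3K4me3-only genes have a median of 30, those with both marks 14.5 and those with neither 6.5.

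The mesenchymal group held the members that differed most between the tissues. Of its 9 genes, 4 were 4-fold higher in mesenchyme RNA, and the group summed to 86.0 FPKM in mesenchyme against 2.06 in bud. In cap cells 4 of the 9 carried H3K4me3 only, 4 both marks and 1 neither. In ureteric cells 6 carried both marks, 2 H3K27me3 only, 1 neither and 0 H3K4me3 only. In stem cells 8 of the 9 carried both marks. With the lists of each mark held to an equal number of peaks, Foxc2, Foxd1, Foxd2, Foxf2 and Foxl1 lost H3K4me3 there. Foxc1, Foxf1 and Foxq1 kept both marks.

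Foxc1 (chromosome 13, 31806646 to 31810635, plus strand) was the most abundant forkhead gene in mesenchyme at 39.4 FPKM, and was 0.0802 FPKM in bud, a difference of 5.22 in log2(FPKM + 1). In the authors' deposited table its intervals ran from 34.3 to 44.4 FPKM in mesenchyme and from 0 to 0.161 FPKM in bud. Foxc2 (chromosome 8, 121116171 to 121118895, plus strand), its closest relative, was 16.9 FPKM in mesenchyme and 0.206 FPKM in bud, a difference of 3.89. The authors' deposited table gives Foxc2 intervals of 14.4 to 19.5 and 0.0429 to 0.370 FPKM. Both genes were thus high in 1 tissue and near the bottom of the scale in the other, with intervals that do not meet. Each interval given here and below comes from 1 library, so it holds no spread between replicate dissections. Foxc genes also act in endothelium, and 3 of the 8 endothelial markers were 4-fold higher in mesenchyme RNA, ranging from 0.914 to 8.87 FPKM there and from 0.127 to 6.81 FPKM in bud; their part in the Foxc values was not tested.

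At the Foxc1 start, the H3K4me3 peak measured 12.8 kb in cap cells, 7.18 kb in ureteric cells and 3.52 kb in stem cells. H3K27me3 was absent from the Foxc1 window in cap cells, covered 31.4% of it in ureteric cells and 64.5% in stem cells. The ureteric cell H3K27me3 peak of 4.61 kb ended before the start, from -4.99 to -0.373 kb, negative distances lying upstream. Foxc2 had the same order, with H3K4me3 peaks of 9.56, 5.56 and 2.41 kb in cap cells, ureteric cells and stem cells and H3K27me3 over 0%, 34.5% and 78.4% of the window. At the Foxc2 start in ureteric cells the marks lay side by side, H3K27me3 ending at -0.311 kb and H3K4me3 beginning at -0.192 kb, with 0 bp carrying both. It was the only such case among the 51 pairs of a forkhead start and a population with both marks (18, 10 and 23 in cap cells, ureteric cells and stem cells). In both genes the H3K4me3 peak of ureteric cells still covered 100% of the body although the bud RNA was near 0.

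Foxd1 (chromosome 13, 98354245 to 98356705, plus strand), the stromal progenitor gene, was 22.9 FPKM in mesenchyme and 0.0301 FPKM in bud, a difference of 4.54. The authors' deposited table gives Foxd1 intervals of 19.6 to 26.3 and 0 to 0.0928 FPKM. Its H3K4me3 peak was 6.46 kb wide in cap cells, 2.44 kb in ureteric cells and 3.11 kb in stem cells. Unlike Foxc1, Foxc2 and Foxd2, Foxd1 kept an H3K27me3 peak in cap cells, from -2.34 to -0.459 kb, which covered 27.1% of the window and scored above 99.1% of that list or level with it. In ureteric cells and in stem cells H3K27me3 covered 100% of the Foxd1 window. That cap cell peak lay wholly upstream of the gene. A separate peak of 218 bp, from 1.87 to 2.09 kb, covered 8.86% of the body in cap cells, against 97.6% covered in ureteric cells. Of the 9 renal stroma markers, 6 carried H3K4me3 only and 2 both marks in the sorted cap cells; Foxd1 is itself 1 of those 2, with Tbx18, so the list partly restates its marks. The part of stromal cells in the Foxd1 marks was not tested. The peak scores are the authors' own and rank peaks within a list only.

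Foxd2 (chromosome 4, 114906280 to 114908898, minus strand), active in kidney mesenchyme, was 5.84 FPKM in mesenchyme and 0.0140 FPKM in bud, a difference of 2.75. In the authors' deposited table its intervals ran from 4.63 to 7.05 and from 0 to 0.0555 FPKM. Its H3K4me3 peak in cap cells was the widest at any forkhead start, 14.4 kb, against 3.58 kb in ureteric cells and 3.37 kb in stem cells. H3K27me3 was absent from its window in cap cells and covered 66.4% in ureteric cells and 62.8% in stem cells. Foxd2 thus had both marks in ureteric cells and stem cells and H3K4me3 only in cap cells, but with the lists of each mark held to an equal number of peaks it lost H3K27me3 in ureteric cells and H3K4me3 in stem cells. The long noncoding gene Foxd2os starts 359 bp away on the opposite strand and was 43.1 FPKM in mesenchyme and listed at 0 in bud. The libraries kept strand, but the sources do not say whether the counting used it, and the marks at the shared window belong to either gene.

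Of the other mesenchymal genes, Foxl1, active in gut mesenchyme, was 0.688 FPKM in mesenchyme and 0.0246 FPKM in bud. Its start carried H3K4me3 only in cap cells, over 52.8% of the window, and H3K27me3 only in ureteric cells, where that mark covered 100% of the window, a call that was lost with lists of equal length. Foxq1, known from hair, was the forkhead gene that leaned most to bud, listed at 0 in mesenchyme and at 1.70 FPKM in bud, a difference of -1.43. In the authors' deposited table the bud interval of Foxq1 was 1.17 to 2.24 FPKM. Foxq1 carried both marks in all populations, but H3K27me3 covered 100% of its window and 98.8% of its body in cap cells against 24.4% and 5.88% in ureteric cells. Of the 9 genes of this role group, it was the only one in which H3K27me3 covered less of the start in ureteric cells than in cap cells. Foxq1 stands in the mesenchymal group by list, and its RNA here goes against the group name.

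Foxf1 and Foxf2, which act in lung, gut and palate mesenchyme under Hedgehog signaling, had little or no RNA: Foxf1 was listed at 0 in both tissues, and Foxf2 at 0.157 FPKM in mesenchyme and 0 in bud. The Foxf1 start lay within an H3K27me3 peak of 22.3 kb in ureteric cells, the widest of that mark at any forkhead start. Its H3K4me3 peaks measured 2.40, 2.45 and 3.51 kb in cap cells, ureteric cells and stem cells. Fendrr, a long noncoding gene that starts 1276 bp from Foxf1 on the opposite strand, was 0.0237 FPKM in mesenchyme and listed at 0 in bud. At Foxf2, H3K27me3 peaks of 9.49 and 14.8 kb spanned the start in cap cells and ureteric cells, and H3K4me3 covered 90.7% of the window in cap cells and 0% in ureteric cells. Foxs1 was 0.0685 FPKM in mesenchyme and listed at 0 in bud, with H3K4me3 only in stem cells and neither mark in the kidney populations.

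**Figure D4:**
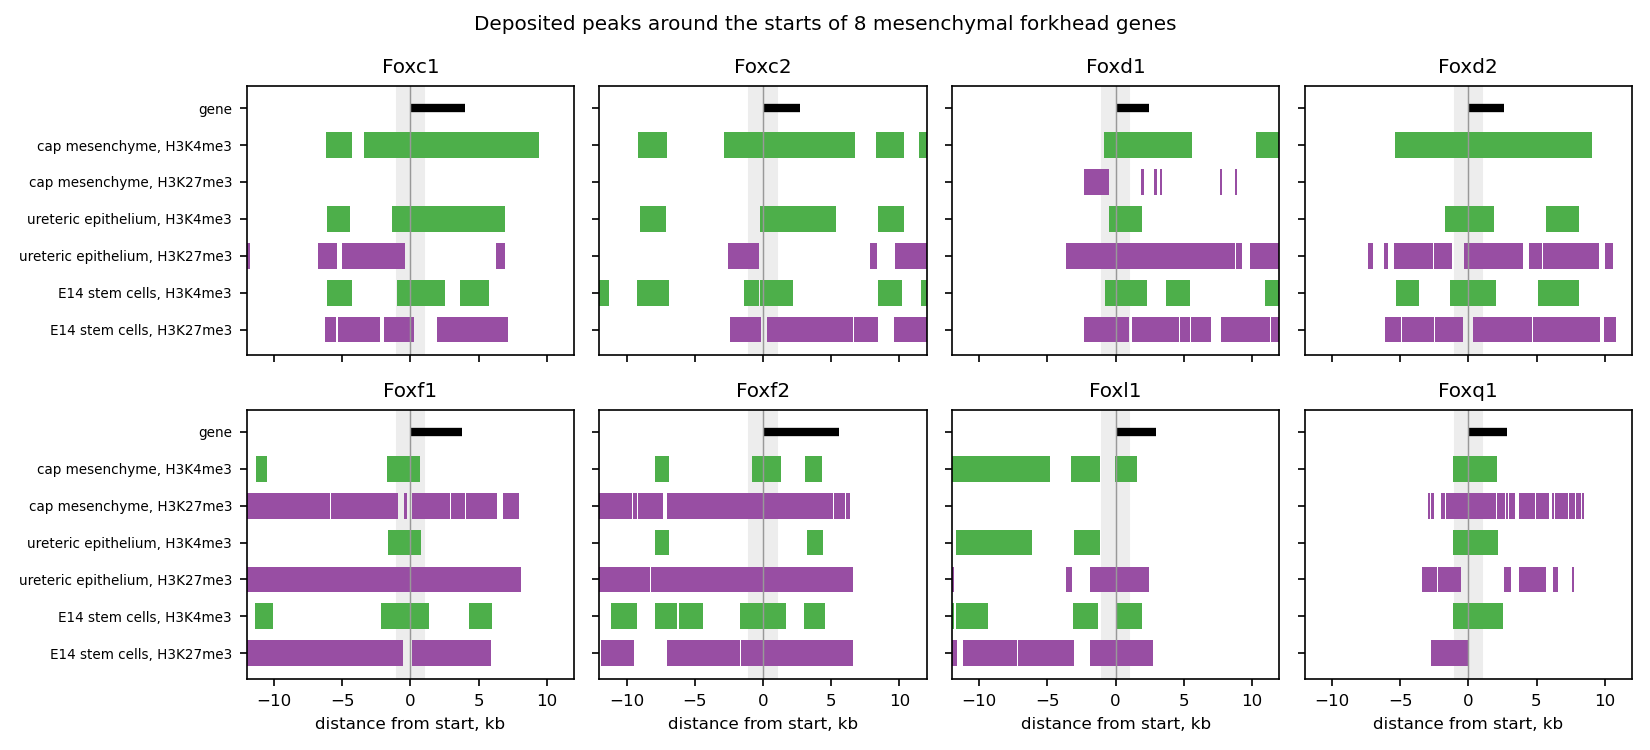
Deposited H3K4me3 (green) and H3K27me3 (purple) peaks around the starts of 8 mesenchymal forkhead genes in cap cells, ureteric cells and E14 stem cells; the horizontal axis is distance from the start in kb with the gene running to the right, the black bar is the gene and the grey band the window of 1 kb on either side. Foxc1, Foxc2 and Foxd2 have wide H3K4me3 peaks and no H3K27me3 at the start in cap cells, and both marks in the other populations.

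Several of these genes are neighbors. On chromosome 8, Foxf1, Foxc2 and Foxl1 follow each other, and with 10 kb on either side the stretch measured 66.3 kb. H3K27me3 covered 24.8% of it in cap cells, 38.0% in ureteric cells and 45.8% in stem cells, and H3K4me3 26.8%, 17.9% and 24.6%. In cap cells all the H3K27me3 lay around Foxf1 and none at the Foxc2 and Foxl1 starts. On chromosome 13, Foxq1, Foxf2 and Foxc1 span 272 kb with the same margins, of which H3K27me3 covered 11.2%, 13.4% and 10.98% in cap cells, ureteric cells and stem cells. In cap cells that mark lay mainly at Foxq1 and Foxf2 and not at the Foxc1 start, which was the only one of the 3 genes with RNA above 1 FPKM in mesenchyme. On chromosome 4, Foxd2 and Foxe3 lie in 39.8 kb, of which H3K27me3 covered 4.33%, 54.0% and 54.6% and H3K4me3 40.9%, 15.0% and 20.1% in the same order. In cap cells H3K27me3 was thus at the starts of some genes of each cluster and missing at others: Foxf1, Foxq1, Foxf2 and Foxe3 had both marks there, and Foxc2, Foxl1, Foxc1 and Foxd2 had H3K4me3 only.

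**Figure D5:**
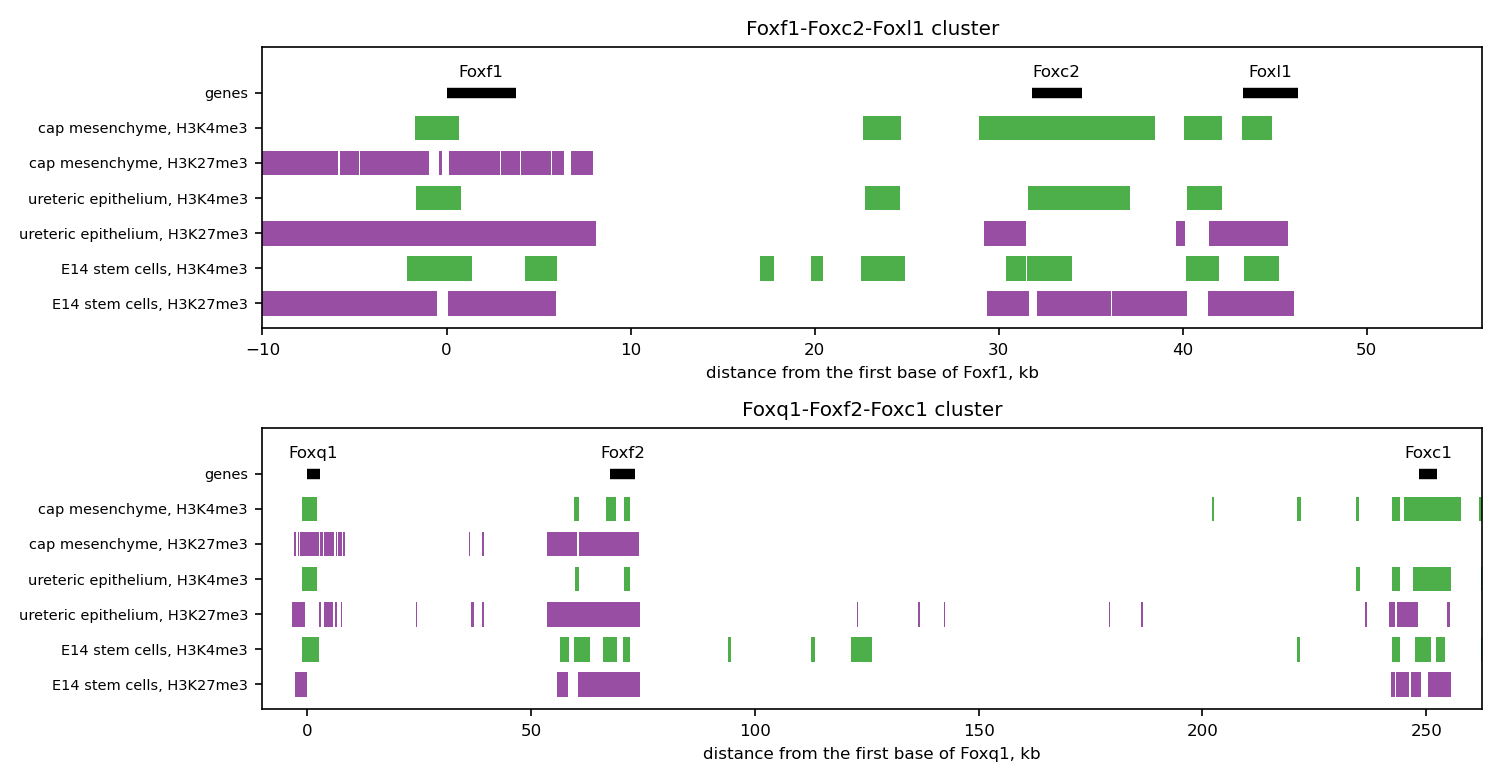
Deposited H3K4me3 (green) and H3K27me3 (purple) peaks over the Foxf1-Foxc2-Foxl1 and Foxq1-Foxf2-Foxc1 clusters in the 3 populations; the horizontal axis is distance in kb from the first base of the first gene and black bars are the genes. In cap cells H3K27me3 peaks lie around Foxf1, Foxq1 and Foxf2 and are missing at the starts of Foxc2, Foxl1 and Foxc1.

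The 15 FoxO, FoxP, FoxK, FoxM, FoxJ2, FoxJ3, FoxN2 and FoxN3 genes made up most of the remaining RNA, 112 FPKM in mesenchyme and 108 FPKM in bud. Of the 15, 1 was 4-fold higher in mesenchyme and 0 in bud. Of them, 12 were at 1 FPKM or more in both tissues, and their differences ran from -0.83 to 0.96 with a median of -0.07, against -0.46 over protein-coding genes at that level. Relative to that shift, 9 of the 12 lay above the protein-coding median.

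Foxp2, a repressor known from lung and brain, was the exception in the group at 6.59 FPKM in mesenchyme and 0.138 FPKM in bud, a difference of 2.74. Its most abundant transcript had intervals of 3.94 to 5.72 FPKM in mesenchyme and 0.0242 to 0.203 FPKM in bud in the authors' deposited table. The outermost Foxp2 start, the only one read, carried both marks in all 3 populations. H3K4me3 covered 96.0%, 85.7% and 100% of the window in cap cells, ureteric cells and stem cells. H3K27me3 covered 41.5%, 25.7% and 29.7% in the same order. Requiring 50% of the window dropped H3K27me3 in all 3 populations, and lists of equal length dropped it in cap cells. The 2 Foxp2 transcripts at 1 FPKM or more have different start labels in the authors' deposited table. Whether either uses the outermost start was not tested. The Foxp2 relatives Foxp4 and Foxp1 were 21.4 and 14.2 FPKM in mesenchyme and 11.4 and 9.69 FPKM in bud, differences of 0.85 and 0.51. Foxp1 carried H3K4me3 only in the kidney populations, its peak measuring 10.2 kb in cap cells and 5.09 kb in ureteric cells, and both marks in stem cells. For Foxp4, the authors' deposited table lists 1 transcript of 3989 bases at 11.4 and 9.87 FPKM and 1 of 3986 bases at 6.53 and 0.000397 FPKM, mesenchyme first. How reads were divided between transcripts this alike was not tested. Foxp3, the regulatory T cell factor, was 0.0568 and 0.0388 FPKM with neither mark anywhere.

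Among the FoxO genes, which act below insulin signaling, Foxo4 was 10.8 FPKM in mesenchyme and 15.1 FPKM in bud, a difference of -0.44. Foxo3 was 4.93 and 2.04 FPKM, a difference of 0.96, and Foxo1 was 2.40 and 4.66 FPKM, a difference of -0.74. Foxo3 thus lay on the mesenchyme side of the overall shift, Foxo4 close to it and Foxo1 below it. The 3 genes carried H3K4me3 only in all populations. Foxo6, a FoxO gene of the brain, was 0.0480 and 0.299 FPKM, with H3K4me3 only in cap cells, H3K27me3 only in ureteric cells over 51.2% of the window, and both marks in stem cells. Of 22 genes listed as FoxO targets, 0 were 4-fold higher in mesenchyme and 2 in bud, where the background shares were 0.947% and 2.18%. The 2 were Cdkn1a, a cell cycle inhibitor, at 0.188 and 6.68 FPKM, and Trib1, a pseudokinase, at 1.66 and 9.99 FPKM. The median of the 15 targets at 1 FPKM or more in either tissue was -0.54, against -0.48 over protein-coding genes at that level.

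Foxm1, the mitotic regulator, was 14.4 FPKM in mesenchyme and 13.5 FPKM in bud, a difference of 0.08. All 18 genes listed as its targets were above 1 FPKM in a tissue, with a median of -0.44, close to the overall shift. Cdc25b, a mitotic phosphatase, was the 1 target that was 4-fold higher in bud, at 4.42 and 20.9 FPKM, and 0 were higher in mesenchyme. Background shares for bud and mesenchyme were 2.18% and 0.947%. Foxk1 and Foxk2, which act in metabolism and muscle progenitors, had the lowest differences of the group, 4.68 and 9.08 FPKM for Foxk1 and 8.67 and 16.1 FPKM for Foxk2, or -0.83 and -0.82. The authors' deposited table gives Foxk1's main transcript intervals of 3.93 to 5.44 FPKM in mesenchyme and 7.89 to 10.2 FPKM in bud. These do not meet as listed. They make no allowance for the general shift of -0.46, which has the same direction, and whether they would meet after it was not tested.

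Foxj3 was 8.97 and 11.8 FPKM in mesenchyme and bud, a difference of -0.36, and Foxj2 2.21 and 2.72 FPKM, a difference of -0.21. Foxn2 was 1.93 and 1.34 FPKM, a difference of 0.32. Foxn3, a repressor of cell cycle genes, was 11.2 and 10.5 FPKM, a difference of 0.08. Foxn3 was level as a gene but not by transcript: in the authors' deposited table its transcript of 7861 bases was 0.137 FPKM in mesenchyme and 3.74 FPKM in bud, with intervals of 0 to 0.489 and 2.87 to 4.61. A listed Foxn3 start 113.6 kb inside the gene had neither mark in any population. At their outermost starts Foxj2, Foxj3, Foxn2 and Foxn3, with Foxm1, Foxk1, Foxk2, Foxo1, Foxo3, Foxo4 and Foxp4, carried H3K4me3 only in all 3 populations. Foxh1, the Nodal pathway factor, shared that pattern without RNA, at 0.00948 and 0.0432 FPKM. Its H3K4me3 peak was 2.13 kb in cap cells, 2.07 kb in ureteric cells and 7.88 kb in stem cells, where it covered the whole gene. These 12 members make up 27.3% of the family, against 46.8% of protein-coding genes with H3K4me3 only in all 3.

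The nervous system, eye and neural crest genes Foxb1, Foxb2, Foxd3, Foxd4, Foxe3 and Foxn4 shared a pattern, with both marks in cap cells and H3K27me3 only in ureteric cells. Of these genes, only Foxb2 and Foxn4 kept H3K4me3 in cap cells and not in ureteric cells under all 8 alternatives tried. Foxb1 and Foxd3 lost H3K4me3 in cap cells with lists of equal length. The RNA of all these genes lay near 0 in both tissues, the highest being Foxd3 at 0.0799 FPKM in mesenchyme. The 6 neural crest and neuron markers summed to 6.83 and 5.55 FPKM, 0 of them listed at 0 in mesenchyme and 2 in bud, and their part in these values was not tested. Over the whole family, 11 members went from both marks in cap cells to H3K27me3 only in ureteric cells, where the background share was 1.38%.

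Foxb1, a gene of the hypothalamus, was listed at 0 in both tissues and had H3K4me3 over 43.8% of the window in cap cells, 0% in ureteric cells and 100% in stem cells. Foxb2 was also listed at 0, with 100%, 0% and 100%. H3K27me3 covered 100% of both windows in cap cells. The H3K4me3 peak of Foxb1 in cap cells scored low, at or above 6.10% of that list, whereas that of Foxb2 stood at 61.8%.

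Foxd3, which maintains neural crest and pluripotent cells, was 0.0799 FPKM in mesenchyme and listed at 0 in bud. Its H3K4me3 covered 17.3% of the window in cap cells and 0% in ureteric cells, and in stem cells a peak of 5.91 kb ended at -0.837 kb and covered 8.20%. Foxd4, of the neural plate, was listed at 0 in mesenchyme and at 0.0188 FPKM in bud, with H3K4me3 over 49.8%, 0% and 71.2%. Foxd3 and Foxd4 had H3K27me3 over 83.8% and 99.2% of the window in cap cells and over 91.9% and 100% in ureteric cells. Foxe3, the lens gene next to Foxd2, was listed at 0 in both tissues and had H3K4me3 over 62.9% in cap cells and 0% in the others. Foxn4, of retina and spinal cord, was listed at 0 and at 0.0146 FPKM, with H3K4me3 over 70.7%, 0% and 88.8%. At the Foxe3 and Foxn4 starts H3K27me3 covered 63.9% and 63.7% in cap cells and 100% and 95.4% in ureteric cells.

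The 9 genes of endoderm, ionocytes, cilia and other epithelia summed to 0.123 FPKM in mesenchyme and 0.849 FPKM in bud, and 0 of the 9 reached 1 FPKM. Foxj1, the master gene of motile cilia, was the highest at 0.111 and 0.427 FPKM, with H3K4me3 only in the kidney populations and a small H3K27me3 peak besides in stem cells, over 21.7% of the window. Of 22 measured motile cilia genes, 0 were 4-fold different in either direction, with a median difference of -0.04 over those at 1 FPKM or more. Foxi1, of intercalated cells, was listed at 0 in mesenchyme and at 0.0878 FPKM in bud, with neither mark at the start or over the body in any population. Of 13 intercalated cell genes, 0 were 4-fold different, and 7 were listed at 0 in each tissue. Few genes of either list had RNA at this age: 7 of the 22 cilia genes and 1 of the 13 intercalated cell genes reached 1 FPKM in a tissue. Among protein-coding genes 51.8% did so, and 0.947% were 4-fold higher in mesenchyme and 2.18% in bud.

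The FoxA genes had little RNA and 3 different mark patterns. Foxa1 was 0.0127 and 0.0249 FPKM, Foxa2 was listed at 0 and at 0.0182 FPKM, and Foxa3 at 0 and at 0.143 FPKM, mesenchyme first. Foxa2 had both marks in every population, within H3K27me3 peaks of 5.78 kb in cap cells and 12.97 kb in ureteric cells. Foxa1 had H3K27me3 only at its outermost start in both kidney populations and both marks in stem cells, while a listed start 1.918 kb inside the gene had both marks in all 3. Foxa3 was the only member with H3K4me3 only in stem cells and both marks in the kidney populations.

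Among the remaining epithelial genes, Foxe1, of the thyroid, was listed at 0 in both tissues, with H3K4me3 over 72.5% and H3K27me3 over 93.7% of the window in cap cells and H3K27me3 only in ureteric cells and stem cells. Foxi2 was listed at 0 in both tissues, and its H3K27me3 covered 33.0% of the window in cap cells, 100% in ureteric cells and 66.7% in stem cells. H3K4me3 covered 56.6%, 0% and 68.7% of the Foxi2 window in the same order. Foxi3, of ear and skin placodes, was listed at 0 and at 0.148 FPKM with both marks throughout. Foxn1, of thymus and hair, was listed at 0 with neither mark. Of the early embryo and gonad genes, Foxl2, the ovary factor, was listed at 0 in both tissues, with both marks over 98.4% of the window in cap cells. In ureteric cells its start carried H3K27me3 alone, in a peak of 9.51 kb. Foxr1 and Foxr2, genes of the germ line, carried H3K4me3 only in stem cells and neither mark in the kidney populations. Foxr1 was listed at 0 in both tissues, and Foxr2 at 0 in mesenchyme and 0.0661 FPKM in bud.

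Between the kidney populations, 13 members had H3K4me3 in cap cells and not in ureteric cells, where the background share was 4.58%, and 0 had the reverse (background 0.681%). Among the 13 were Foxb1, Foxb2, Foxd3, Foxd4, Foxe3 and Foxn4 with Foxe1, Foxf2, Foxi2, Foxl1, Foxl2 and Foxo6. The cap cell H3K4me3 list was the longer one, and with each list held to an equal number of peaks 9 remained; 5 members, Foxb2, Foxf2, Foxl2, Foxn4 and Foxo6, were counted under each of the 8 alternatives tried. For H3K27me3, 5 members had the mark in ureteric cells and not in cap cells, Foxc1, Foxc2, Foxd2, Foxl1 and Foxo6, where the background share was 5.62%, and 0 had the reverse (background 2.28%). That count ranged from 4 to 7 over the alternatives, but 0 of its members were in every one: requiring 50% of the window dropped Foxc1 and Foxc2 and added Foxa3, Foxd1 and Foxi2, and lists of equal length dropped Foxd2 and Foxl1 and added Foxp2. Foxc1, Foxc2 and Foxd2 (3 members) had H3K4me3 only in cap cells and both marks in ureteric cells, where the background share was 3.33%.

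In stem cells, 23 members had both marks. In cap cells 7 of these had H3K4me3 only, 15 both marks and 1 H3K27me3 only, or 30.4%, 65.2% and 4.35%, while protein-coding genes with both marks in stem cells gave 57.2%, 37.7% and 2.71%. In ureteric cells 2 had H3K4me3 only, 9 both marks and 12 H3K27me3 only, or 8.70%, 39.1% and 52.2%, against 42.7%, 37.8% and 13.6%. The share with H3K4me3 only was smaller among the forkhead genes in both populations. With lists of equal length, starts with H3K4me3 in stem cells fell from 39 to 29 members, and these shares were not recounted. The 7 with H3K4me3 only in cap cells were Foxc1, Foxc2, Foxd2, Foxj1, Foxl1, Foxo6 and Foxp1. The H3K27me3 peaks were also broad: the widest at each marked start had a median of 2.74, 4.95 and 3.76 kb in cap cells, ureteric cells and stem cells, against 0.381, 0.991 and 1.21 kb at marked protein-coding starts.

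Other families of developmental regulators were counted in the same way. H3K27me3 lay at 9, 9 and 9 of 13 T-box, 10, 10 and 12 of 19 Sox, 6, 6 and 8 of 9 Pax, and 7, 6 and 7 of 8 LIM homeobox starts in cap cells, ureteric cells and stem cells. H3K4me3 lay at 8, 5 and 10 T-box starts, 18, 13 and 19 Sox starts, 5, 2 and 8 Pax starts, and 5, 2 and 7 LIM homeobox starts. In each of these families, as in the forkhead family, the ureteric cell list had the fewest starts with H3K4me3. The ureteric cell share was also the lowest over protein-coding starts, at 59.7% against 63.6% in cap cells and 67.5% in stem cells. The ureteric cell H3K4me3 list was the shortest, at 23958 peaks.

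The stromal program around Foxd1 was described by 15 listed genes. Of these, 10 were 4-fold higher in mesenchyme RNA and 0 in bud, beside background shares of 0.947% and 2.18%. The 15 summed to 553 FPKM in mesenchyme against 31.5 FPKM in bud. The median difference of the 14 at 1 FPKM or more was 4.25. Aldh1a2, which makes retinoic acid, was 101 FPKM in mesenchyme and 0.901 FPKM in bud. The homeobox genes Meis2 and Meis1 were 152 and 62.4 FPKM in mesenchyme and 1.98 and 0.288 FPKM in bud, and Tcf21, a mesenchymal transcription factor, was 46.5 and 0.977 FPKM. Aldh1a2, Meis1 and Tcf21 shared the pattern of Foxc1, Foxc2 and Foxd2, with H3K4me3 only in cap cells and both marks in ureteric cells and stem cells, while Meis2 had H3K4me3 only in both kidney populations. The list includes Foxd1 itself and shares genes with the stroma markers, so its count is not independent of the Foxd1 value.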

How the data were processed

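Sequencing libraries had been made from 11 samples, each a group of its own, and 6 peak lists and 1 RNA table were used; 3 input libraries were not analysed here. The peak files hold a score per peak as deposited by the authors, whose scale is not given in the sources used here. The RNA table holds FPKM per transcript with interval bounds, deposited by the authors. Bowtie2, MACS, TopHat, Cufflinks, Cuffdiff and mm10 are named in the submitters' processing notes; versions, settings, read depth and pooling are not given in the sources used here.

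Transcripts were summed per gene by RefSeq accession. A start carried a mark when at least 1 bp of a peak lay within 1 kb of the outermost RefSeq start (GRCm38.p6). Strand came from the promoter table for 28 members and from locus order for 16, and both gave the same strand for 24307 of 24307 genes. RNA differences are log2(FPKM + 1), mesenchyme minus bud, and a 4-fold call also needed 2 FPKM in the higher tissue. With 1 sample per group no test was run. The counting was checked on simulated data. Python 3.11.15, numpy 2.4.6, pandas 2.3.3 and matplotlib 3.10.9 were used.

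The members, role groups and gene lists were chosen with earlier results of these data known. Full values are given for members at 2 FPKM or more in a tissue or with different states in cap cells and ureteric cells, and the other members by name and state. Up to 4 genes of a target or marker list are named, by absolute RNA difference, and noncoding genes starting within 5 kb of a member. Values of 1 member and of 1 listed gene are not reported here.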

Additional observations from a re-analysis of the deposited data

How the results depend on the processing

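Of 90 recomputed counts, 86 stayed within 1.5 times the reported count and 4 moved, each from 0 to 1. With the most abundant transcript only, 1 member (Foxn3) was 4-fold higher in ureteric bud RNA, while the same 5 members were higher in mesenchyme under all 5 RNA alternatives. With a window of 500 bp, and with peaks over at least 50% of the window, 1 member (Foxq1) had H3K27me3 in cap cells and not in ureteric cells. With either end of the gene, 1 member (Foxa1) had H3K4me3 in ureteric cells and not in cap cells. Starts with H3K27me3 ranged from 15 to 20, 20 to 26 and 19 to 25 in cap cells, ureteric cells and stem cells, and starts with H3K4me3 from 30 to 38, 19 to 26 and 29 to 40. Counting any listed start was chosen after seeing the data. No paired analysis was possible because each group held 1 sample. Read depth is unknown, so a missing mark and low depth cannot be told apart, and low FPKM values rest on few fragments.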
